A study of Homo sapiens with 8 samples.

Results

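The adaptor, docking and exchange proteins that sit just below the epidermal growth factor receptor (EGFR) were examined by the abundance of their knockouts in a pooled CRISPR screen. The set holds 9 genes: GRB2, SHC1, GAB1, PTPN11 (which encodes SHP2), SOS1, SOS2, SHOC2, CBL and CBLB. They were chosen by name for their place in the pathway, with earlier results of these data known. All 9 were measured, among 17761 genes that could be tested of 18052 genes listed. PC9 cells, an established line of EGFR-mutant non-small cell lung cancer, carried Cas9 and were infected with TKOv3, a genome-wide library of guide RNAs, and each guide was counted by sequencing. There were 4 groups of 2 libraries: cells kept for 72 h in 10 µM erlotinib, cells kept for 72 h in 0.1 µM osimertinib, cells left untreated (DMSO) for 72 h, and the cells at the start of treatment (T0). Every group shared the Cas9 line, the guide library and puromycin selection, and the 2 drugs were given at different doses. The study's methods state that untreated cells were passaged within the 72 h and name no passage for drug-treated cells. In comparisons of drug-treated with untreated cells, that handling cannot be told apart from the drug. The labels state infection in duplicate and the study calls the libraries biological replicates, but neither says whether the 2 libraries of a group were kept apart throughout, so p-values here measure the spread between these libraries, which may be partly technical.

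When EGFR is active, its phosphorylated tail recruits SHC1 and GRB2, small proteins with no enzyme activity that bind phosphotyrosine. GRB2 brings in SOS1 and SOS2, which load RAS with GTP, and GAB1, a docking protein that in turn recruits PI3-kinase and the phosphatase SHP2. SHOC2 acts further down, in a phosphatase complex that removes an inhibitory phosphate from RAF, and CBL and CBLB are ubiquitin ligases that attach to the active receptor and mark it for breakdown.

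Library depth was even, at 32096281 to 39200466 reads per library and a median of 445 to 549 reads per guide. The measure throughout is the log2 fold change (L2FC) of a knockout, computed from a level per gene and library. That level is the median over the guides of a gene, each guide first centred on its own mean over the libraries, set to 0 at the median of 138 non-targeting guides. It is not the median of the single-guide L2FC, from which it can differ, even in sign near 0 (PTPN11 with osimertinib against untreated cells was at -0.06, and the median of its guide values was 0.02). A positive L2FC means that cells carrying the knockout made up more of the population than in the group set against. Live cells were collected, so an L2FC does not tell growth apart from death. Genes of the cytosolic ribosome, which nearly all cells need, fell as a check of the screen, with 51 of 53 lower in untreated cells than at T0 and a median L2FC of -0.78. Guides against olfactory receptor genes, which these cells should not use, had a median of -0.12 in the same comparison and the median over all genes was -0.16, so most targeting guides lay below the non-targeting ones. Values against T0 are therefore given with that shift beside them. Between drug-treated and untreated cells the median over all genes was 0.02 for erlotinib and 0.01 for osimertinib.

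Most of the 9 knockouts did not pass the test between drug-treated and untreated cells, and those that did moved in both directions. Relative to untreated cells, loss of GAB1 was enriched with both drugs, loss of SHC1 with osimertinib, and loss of SHOC2 was depleted with both. Against T0, GAB1 was at 0.12 with erlotinib and -0.01 with osimertinib, SHC1 was at -0.07 and 0.06, and none of these passed. Both genes were at -0.28 in untreated cells against T0. The study warns that slow growth of a knockout without drug can also give a positive L2FC, which was not tested here. Of 53 ribosomal genes, 13 were higher and 0 lower with erlotinib, and 3 higher and 1 lower with osimertinib. With erlotinib 1 of 9 genes was lower (SHOC2) and 1 was higher (GAB1) at an adjusted p below 0.05, where 2.62% of all genes tested were lower and 5.42% were higher. With osimertinib 1 was lower (SHOC2) and 2 were higher (SHC1 and GAB1), against 5.44% of all genes lower and 6.56% higher. The median L2FC over the 9 genes was 0.08 in each of these comparisons. The 2 comparisons share the untreated libraries, so their values are not independent of each other. All adjusted p-values for genes come from limma over all 17761 genes with Benjamini-Hochberg adjustment.

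**Figure D1:**
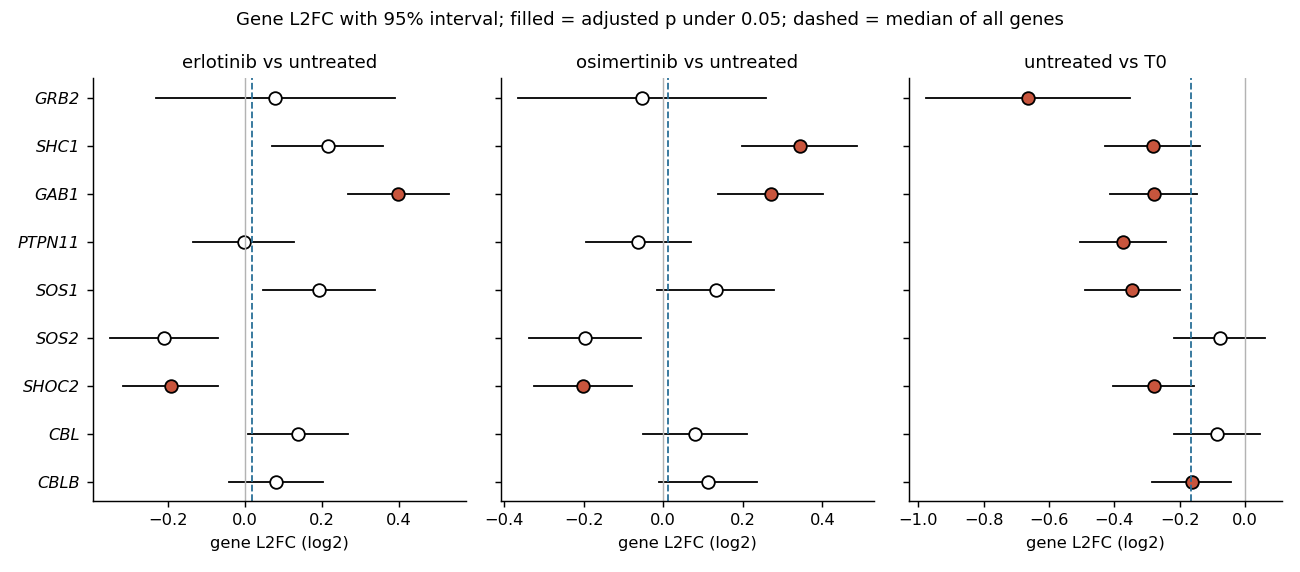
Gene L2FC (log2 scale, horizontal axis) of the 9 genes for erlotinib vs untreated, osimertinib vs untreated and untreated vs T0, with bars for the 95% interval from limma, filled points for an adjusted p under 0.05 and a dashed line at the median of all genes. With the drugs GAB1 and SHC1 lie to the right and SHOC2 and SOS2 to the left, while against T0 GRB2 lies farthest left at -0.66.

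Without drug, the count of knockouts lost over 72 h depended on the choice of zero. In untreated cells set against T0, 7 of 9 genes were lower and 0 were higher (0 also at an unadjusted p below 0.05 in limma, and 0 by edgeR and DESeq2 on summed counts), but 50.3% of all genes were lower and 0.0338% higher on the same scale. The 9 genes had a median L2FC of -0.28. With the zero moved to the median of all targeting guides, 2 of 9 were lower (GRB2 and PTPN11), against 10.1% of all genes. With each gene set against its 10 neighbours on either side along the chromosome, only GRB2 was lower, against 7.88% of all genes.

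GRB2 lies on chromosome 17 (75318076 to 75405678 in GRCh38.p14, as are all positions here, from RefSeq). Its knockout was the most depleted of the 9 after culture. Its level relative to the T0 mean was -0.39 and -0.78 in the 2 erlotinib libraries, -0.81 and -0.63 in the osimertinib libraries, -0.77 and -0.56 in the untreated libraries and -0.05 and 0.05 in the T0 libraries. All 6 later libraries lay below both T0 libraries, while the erlotinib, osimertinib and untreated libraries overlapped one another. A lack of overlap with T0 was common over all genes, at 76.7% with erlotinib, 74.4% with osimertinib and 81% in untreated cells. Untreated cells held 63.1% of the T0 abundance (L2FC -0.66 ± 0.15 SE, adjusted p = 0.000726 in limma), and this call held in all 18 alternative settings, with values of -0.75 to -0.49. Against untreated cells the L2FC was 0.08 with erlotinib (95% interval -0.23 to 0.39, adjusted p = 0.824) and -0.05 with osimertinib (95% interval -0.37 to 0.26, adjusted p = 0.87). These were the widest intervals of the 9 genes and leave room for a change in either direction.

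That width goes with few reads. The 4 GRB2 guides had a median normalised count of 143 at T0, against 519 over all targeting guides, and only 3.25% of targeting guides had a lower count. The ribosomal guides, for scale, had a median of 300.2. The medians of the other 8 genes ran between 453 (SHC1) and 731 (SHOC2), so GRB2 stood apart from the set already at T0. Whether its guides were scarce in the library itself or were lost between infection and T0 cannot be told apart here, since no count of the library before infection was used. Guide 3 of GRB2, numbering guides in the order of the deposited table, had 109 and 109 reads with erlotinib, 115 and 163 with osimertinib, 179 and 162 in untreated cells and 225 and 246 at T0. Guides 2, 3 and 4 passed the single-guide test in untreated cells against T0 with L2FC of -0.63, -0.57 and -0.66, while guide 1 was at -0.20 (adjusted p = 0.646 in edgeR).

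SHC1, on chromosome 1 (154962298 to 154974376), is the phosphotyrosine adaptor that can link the receptor to GRB2. With the zero at non-targeting guides, its knockout was depleted in untreated cells and stood near its T0 level with either drug. The levels were -0.13 and -0.0005 in the erlotinib libraries, 0.10 and 0.02 in the osimertinib libraries, -0.31 and -0.26 in the untreated libraries and 0.06 and -0.06 in the T0 libraries. Both untreated libraries lay below all 6 others. Between pairs of groups such separation was common over all genes. Its share was 51% with erlotinib and 51.5% with osimertinib against untreated cells, and 81% in untreated cells against T0. Osimertinib-treated cells held 127% of the untreated abundance (L2FC 0.34 ± 0.07 SE, adjusted p = 0.00105 in limma), a call that held in all 18 alternative settings with values of 0.25 to 0.39. With erlotinib the L2FC was 0.22 (95% interval 0.07 to 0.36) and the adjusted p of 0.0558 missed the threshold. It passed in 5 of the 18 settings, among them the mean over guides (0.24, adjusted p = 0.0208). The direct difference between erlotinib and osimertinib was -0.13 (95% interval -0.27 to 0.02, adjusted p = 0.444), so the drugs were not shown to differ. In untreated cells against T0 SHC1 was lower, at -0.28 (adjusted p = 0.00175), where the median over all genes was -0.16. Without T0 replicate 1 the call was lost, at -0.23. It was also lost with the zero at all targeting guides (-0.11, adjusted p = 0.348), olfactory receptor guides (-0.16, 0.135) and chromosome neighbours (-0.12, 0.385).

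The 4 SHC1 guides did not behave alike. Guide 3 had 277 and 306 reads with erlotinib, 348 and 384 with osimertinib, 203 and 228 in untreated cells and 361 and 301 at T0. It moved most of the 4, with an L2FC of 0.61 for erlotinib vs untreated, 0.73 for osimertinib vs untreated and -0.73 for untreated vs T0. Guide 1 was near 0 in those comparisons, at -0.04, 0.04 and 0.04, and the other 2 guides lay in between. Guides 3 and 4 passed the single-guide test with osimertinib (adjusted p = 0.00154 and 0.0447 in edgeR).

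GAB1, on chromosome 4 (143336876 to 143474565), docks PI3-kinase and SHP2 to the receptor complex. It had the highest L2FC of the 9 genes with erlotinib. The levels were 0.04 and 0.20 in the erlotinib libraries, -0.05 and 0.03 in the osimertinib libraries, -0.28 and -0.28 in the untreated libraries and 0.03 and -0.03 in the T0 libraries. The 2 untreated libraries were almost equal and lay below every other library. Over all genes a lack of overlap between 2 groups was common, as for SHC1, at 51% with erlotinib and 51.5% with osimertinib against untreated cells. It was 81% in untreated cells against T0. Erlotinib-treated cells held 132% of the untreated abundance (L2FC 0.40 ± 0.07 SE, adjusted p = 3.9e-05 in limma) and osimertinib-treated cells 121% (L2FC 0.27 ± 0.07 SE, adjusted p = 0.00443). Of all genes tested, 98.5% had a lower L2FC than GAB1 with erlotinib and 96.8% with osimertinib. Leaving out any 1 library kept both calls, with values of 0.32 to 0.48 for erlotinib and 0.24 to 0.30 for osimertinib. Untreated cells were lower than T0, at an L2FC of -0.28 (adjusted p = 0.000774), where the median over all genes was -0.16. This call was lost with the zero at all targeting guides (-0.11, adjusted p = 0.301), olfactory receptor guides (-0.16, 0.0902) and chromosome neighbours (-0.16, 0.15).

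How the guides are combined matters for GAB1. Guides 1, 2 and 3 had an L2FC of 0.64, 0.45 and 0.36 with erlotinib and of 0.58, 0.29 and 0.25 with osimertinib, against untreated cells. Guide 4 went the other way, at -0.21 and -0.17 (adjusted p = 0.229 and 0.267 in edgeR). Guide 4 is also the most abundant, with 817 and 915 reads with erlotinib, 1043 and 1006 with osimertinib, 1073 and 1187 in untreated cells and 924 and 1086 at T0. Guide 1 had 300 and 371 reads with erlotinib, 326 and 421 with osimertinib, 243 and 243 in untreated cells and 309 and 298 at T0. When reads were summed over guides, so that guide 4 weighed most, the erlotinib value became 0.18 (adjusted p = 0.023 in edgeR and 0.0524 in DESeq2) and the osimertinib value 0.12 (adjusted p = 0.133 and 0.211). The sums also gave -0.15 for untreated vs T0 (adjusted p = 0.018 in edgeR). The GAB1 result thus rests on 3 of 4 guides.

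**Figure D2:**
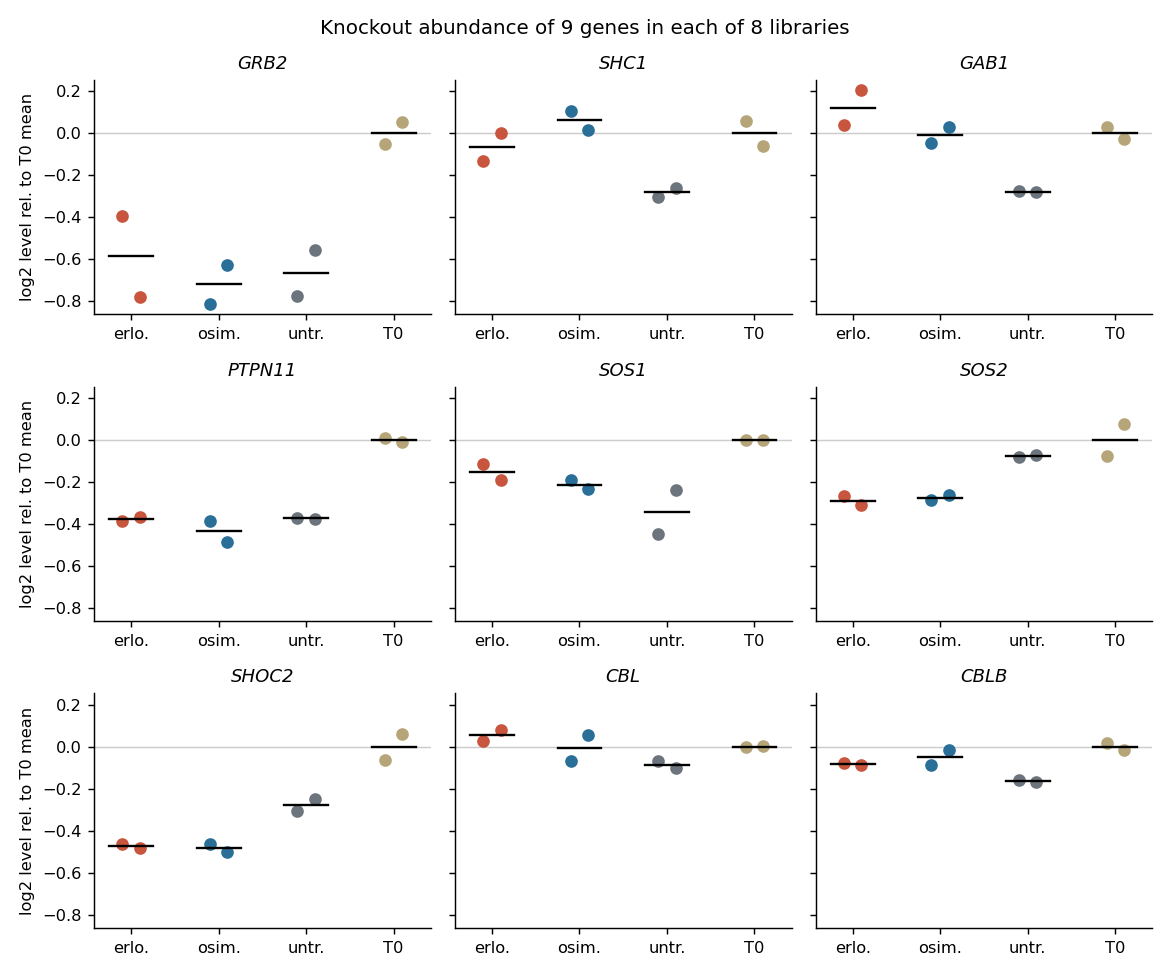
Level of each knockout in each library (vertical axis, log2 relative to the mean of the T0 libraries), with points for the 2 libraries of the erlotinib (erlo.), osimertinib (osim.), untreated (untr.) and T0 groups and a line at each mean. The untreated points are the lowest for SHC1, GAB1, SOS1, CBL and CBLB, and the drug-treated points are the lowest for SHOC2 and SOS2. All later GRB2 points lie at -0.39 or below.

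PTPN11, on chromosome 12 (112418947 to 112509918), encodes SHP2, the phosphatase that GAB1 recruits and that is needed for full RAS activation by receptors. Its knockout fell during culture, and no further change with a drug passed the test. The levels were -0.39 and -0.37 in the erlotinib libraries, -0.39 and -0.48 in the osimertinib libraries, -0.37 and -0.37 in the untreated libraries and 0.01 and -0.01 in the T0 libraries. Untreated cells held 77.3% of the T0 abundance (L2FC -0.37 ± 0.07 SE, adjusted p = 1.86e-05 in limma). Against untreated cells the L2FC was -0.0034 with erlotinib (95% interval -0.14 to 0.13, adjusted p = 0.985) and -0.06 with osimertinib (95% interval -0.19 to 0.07, adjusted p = 0.598). PTPN11 remained below T0 with the zero at all targeting guides but not with the zero at chromosome neighbours (-0.20, adjusted p = 0.0675).

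Of 4 PTPN11 guides in the library, 3 were abundant enough to be used. Guide 2 had 351 and 349 reads with erlotinib, 443 and 424 with osimertinib, 377 and 457 in untreated cells and 569 and 616 at T0. Guides 2 and 3 passed in untreated cells against T0 (-0.61 and -0.40), and guide 4 was at -0.02 (adjusted p = 0.909 in edgeR). Guide 1, left out for low counts, had no more than 10 reads in any later library and 7 and 8 at T0.

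SOS1, on chromosome 2 (38981549 to 39124868), and SOS2, on chromosome 14 (50117130 to 50231882), are paralogous exchange factors for RAS. Relative to the untreated libraries, their knockouts lay on opposite sides. SOS1 levels were -0.11 and -0.19 in the erlotinib libraries, -0.19 and -0.23 in the osimertinib libraries, -0.45 and -0.24 in the untreated libraries and -0.0015 and 0.0015 in the T0 libraries. SOS2 levels were -0.27 and -0.31 in the erlotinib libraries, -0.29 and -0.26 in the osimertinib libraries, -0.08 and -0.07 in the untreated libraries and -0.08 and 0.08 in the T0 libraries. For SOS1 both drug groups lay above the untreated libraries, and for SOS2 both lay below them, with no overlap in either case, as for 51% of all genes with erlotinib and 51.5% with osimertinib, so this alone sets neither paralog apart.

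Neither paralog passed the test between drug-treated and untreated cells. SOS1 had an L2FC of 0.19 with erlotinib (95% interval 0.05 to 0.34, adjusted p = 0.0995 in limma) and 0.13 with osimertinib (95% interval -0.01 to 0.28, adjusted p = 0.25). SOS2 was just outside the threshold, at -0.21 with erlotinib (95% interval -0.35 to -0.07, adjusted p = 0.0516) and -0.20 with osimertinib (95% interval -0.34 to -0.06, adjusted p = 0.0575). With the zero at chromosome neighbours SOS2 was at -0.07 (adjusted p = 0.751) and -0.02 (0.939), and it passed in 5 of 18 settings with erlotinib and 4 with osimertinib. The SOS1 value rested partly on 1 library, since without untreated replicate 2 it was 0.28 with erlotinib (adjusted p = 0.0443) and without untreated replicate 1 it was 0.09. In untreated cells against T0 SOS1 was lower (-0.34, adjusted p = 0.000226) and SOS2 was at -0.08 (95% interval -0.22 to 0.06, adjusted p = 0.337). The SOS1 call was lost with the zero at all targeting guides (-0.17, adjusted p = 0.119) and at chromosome neighbours (-0.15, 0.256). The difference between the paralogs was itself not tested.

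All 4 SOS2 guides had a negative L2FC with both drugs, between -0.25 and -0.13 with erlotinib and between -0.36 and -0.05 with osimertinib. None passed alone. SOS1 guides ran between 0.01 and 0.33 with erlotinib and between -0.13 and 0.30 with osimertinib. In untreated cells against T0 only guide 4 of SOS1 passed (-0.48, adjusted p = 0.00194 in edgeR).

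SHOC2, on chromosome 10 (110919370 to 111013665), was the single gene of the 9 that passed the test as lower in drug-treated than in untreated cells. The levels were -0.46 and -0.48 in the erlotinib libraries, -0.46 and -0.50 in the osimertinib libraries, -0.31 and -0.25 in the untreated libraries and -0.06 and 0.06 in the T0 libraries. The drug groups lay below the untreated libraries and these below T0, with no overlap at either step. Over all genes such a lack of overlap was common, at 51% with erlotinib and 51.5% with osimertinib against untreated cells and 81% in untreated cells against T0. SHOC2 was at -0.28 in untreated cells against T0 (adjusted p = 0.000372 in limma), where the median over all genes was -0.16. This call was lost with the zero at all targeting guides (-0.11, adjusted p = 0.276), olfactory receptor guides (-0.16, 0.0763) and chromosome neighbours (-0.10, 0.456). Erlotinib-treated cells held 87.4% of the untreated abundance (L2FC -0.19 ± 0.06 SE, adjusted p = 0.0407 in limma) and osimertinib-treated cells 87% (L2FC -0.20 ± 0.06 SE, adjusted p = 0.0247). These calls were close to the threshold. The erlotinib call held in 11 of 18 settings and the osimertinib call in 15, with values of -0.23 to -0.16 and of -0.23 to -0.17. Without T0 replicate 1 the erlotinib value was -0.19 (adjusted p = 0.0612), without untreated replicate 1 it was -0.22 (0.11), without untreated replicate 2 it was -0.17 (0.219), without erlotinib replicate 1 it was -0.21 (0.123) and without erlotinib replicate 2 it was -0.19 (0.179). The osimertinib value was -0.22 without untreated replicate 1 (adjusted p = 0.0749), -0.17 without untreated replicate 2 (0.18) and -0.17 without osimertinib replicate 2 (0.115).

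The guides of SHOC2 lay close together. Their SD was 0.10 with erlotinib, 0.08 with osimertinib and 0.05 in untreated cells against T0, where the SD for GAB1 was 0.37, 0.31 and 0.23. Each of the 4 had a negative L2FC in all 3 comparisons, between -0.29 and -0.07, between -0.25 and -0.09 and between -0.34 and -0.22. Guide 3, as an example, had 475 and 485 reads with erlotinib, 528 and 549 with osimertinib, 594 and 656 in untreated cells and 710 and 755 at T0.

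CBL, on chromosome 11 (119206339 to 119308149), and CBLB, on chromosome 3 (105655461 to 105869449), restrain the receptor rather than carry its signal. Neither passed with a drug. CBL levels were 0.03 and 0.08 in the erlotinib libraries, -0.07 and 0.06 in the osimertinib libraries, -0.07 and -0.10 in the untreated libraries and -0.0024 and 0.0024 in the T0 libraries. CBLB levels were -0.08 and -0.09 in the erlotinib libraries, -0.09 and -0.01 in the osimertinib libraries, -0.16 and -0.17 in the untreated libraries and 0.02 and -0.02 in the T0 libraries. Both genes had every drug-treated library above both untreated libraries, by small steps, and such a lack of overlap was seen for about as large a share of all genes as given for SOS1 and SOS2.

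The L2FC of CBL was 0.14 with erlotinib (95% interval 0.01 to 0.27, adjusted p = 0.206 in limma) and 0.08 with osimertinib (95% interval -0.05 to 0.21, adjusted p = 0.473). That of CBLB was 0.08 (95% interval -0.04 to 0.20, adjusted p = 0.479) and 0.11 (95% interval -0.01 to 0.23, adjusted p = 0.238). In untreated cells against T0 CBL was at -0.08 (adjusted p = 0.258). CBLB was lower there (-0.16, adjusted p = 0.0249), close to the median of all genes, and the call was lost without any 1 of the 4 libraries compared, at -0.14 without T0 replicate 1, -0.18 without T0 replicate 2, -0.16 without untreated replicate 1 and -0.14 without untreated replicate 2. Guide 1 of CBL passed alone with erlotinib (0.39, adjusted p = 0.0398 in edgeR), while guide 2 of CBL was at -0.11 (adjusted p = 0.797).

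**Figure D3:**
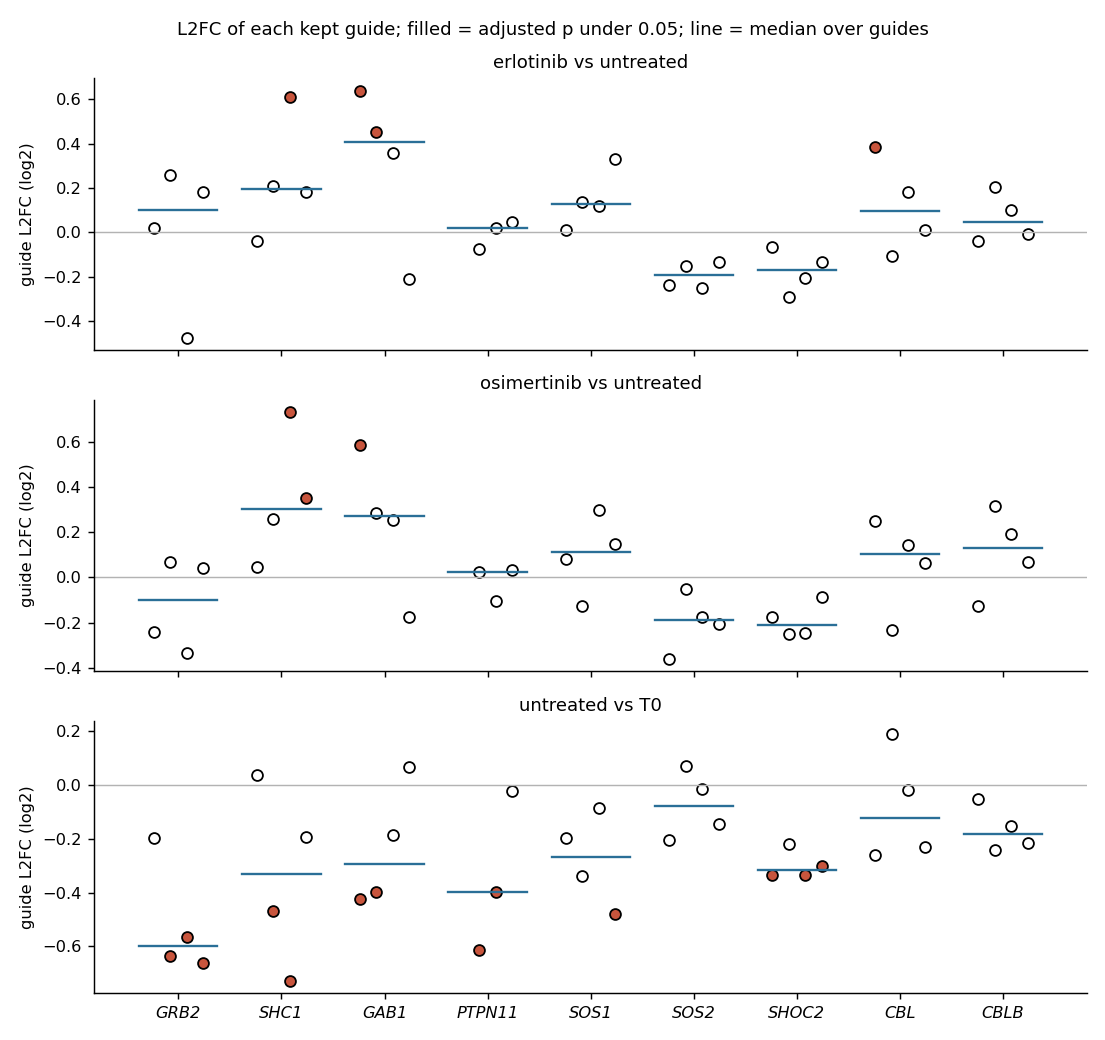
L2FC of each of the 35 guides used (vertical axis, log2) for erlotinib vs untreated, osimertinib vs untreated and untreated vs T0, by gene, with filled points for an adjusted p under 0.05 in edgeR and a line at the median over guides. GAB1 and SHC1 guides spread widely, with guide 4 of GAB1 (rightmost) on the other side of 0 from the rest, whereas SOS2 and SHOC2 guides all lie below 0 with the drugs.

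Across the set, 35 of 36 guides were used, 3 for PTPN11 and 4 for each other gene. Guides to 1 gene share their target, so they are no replicates of a condition. With erlotinib 4 guides were higher (guides 1 and 2 of GAB1, guide 3 of SHC1 and guide 1 of CBL) and 0 were lower, against 2.1% of all guides higher and 0.862% lower. With osimertinib 3 were higher (guides 3 and 4 of SHC1 and guide 1 of GAB1) and 0 were lower, against 2.66% higher and 2.06% lower. In untreated cells against T0, 13 were lower and 0 higher, against 20.5% lower and 0.074% higher.

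Set directly against T0, the drug-treated cells showed which knockouts were lost over the whole 72 h. With erlotinib 4 of 9 genes were lower (GRB2, PTPN11, SOS2 and SHOC2) and 0 were higher, where 44.4% of all genes were lower and 0.417% higher. With osimertinib 5 were lower (the same 4 and SOS1) and 0 were higher, where 46.8% were lower and 1.26% higher. No gene of the 9 was higher at an unadjusted p below 0.05 in limma either, nor by edgeR or DESeq2 on summed counts. SHOC2 had the smallest adjusted p of the set, at -0.47 with erlotinib (8.51e-08) and -0.48 with osimertinib (3.68e-08), and all 4 of its guides passed in both.

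These counts moved with the choice of zero. With the zero at all targeting guides, erlotinib gave 2 lower (PTPN11 and SHOC2) and 2 higher (GAB1 at 0.27 and CBL at 0.21), against 11.1% lower and 4.98% higher of all genes. Osimertinib gave 3 lower (GRB2, PTPN11 and SHOC2) and 1 higher (SHC1 at 0.22), against 15.6% lower and 10.5% higher. GRB2 was at -0.59 with erlotinib against T0 (adjusted p = 0.00252), which became -0.38 (0.0927) without erlotinib replicate 2. With osimertinib it was at -0.72 (adjusted p = 0.00023). SOS1 with osimertinib, at -0.21 (adjusted p = 0.0144), lost its call without T0 replicate 1 (-0.22, 0.0666), T0 replicate 2 (-0.22, 0.0537) or osimertinib replicate 2 (-0.19, 0.0646). SOS2 with osimertinib, at -0.27 (0.0014), lost it without T0 replicate 2 (-0.20, 0.0685).

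Between the drugs, at their different doses, 0 of 9 genes were lower and 0 were higher, in limma, at an unadjusted p below 0.05, and in edgeR and DESeq2 on summed counts. Of all genes, 0.546% were lower and 1.05% higher with erlotinib than with osimertinib. The L2FC ran between -0.13 (SHC1) and 0.13 (GRB2). GAB1 was at 0.13 (95% interval -0.003 to 0.26, adjusted p = 0.381), and SHOC2 was at 0.01 (95% interval -0.12 to 0.13). With 2 libraries a group, such intervals leave room for differences, so the lack of a call does not show that the drugs acted alike.

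**Figure D4:**
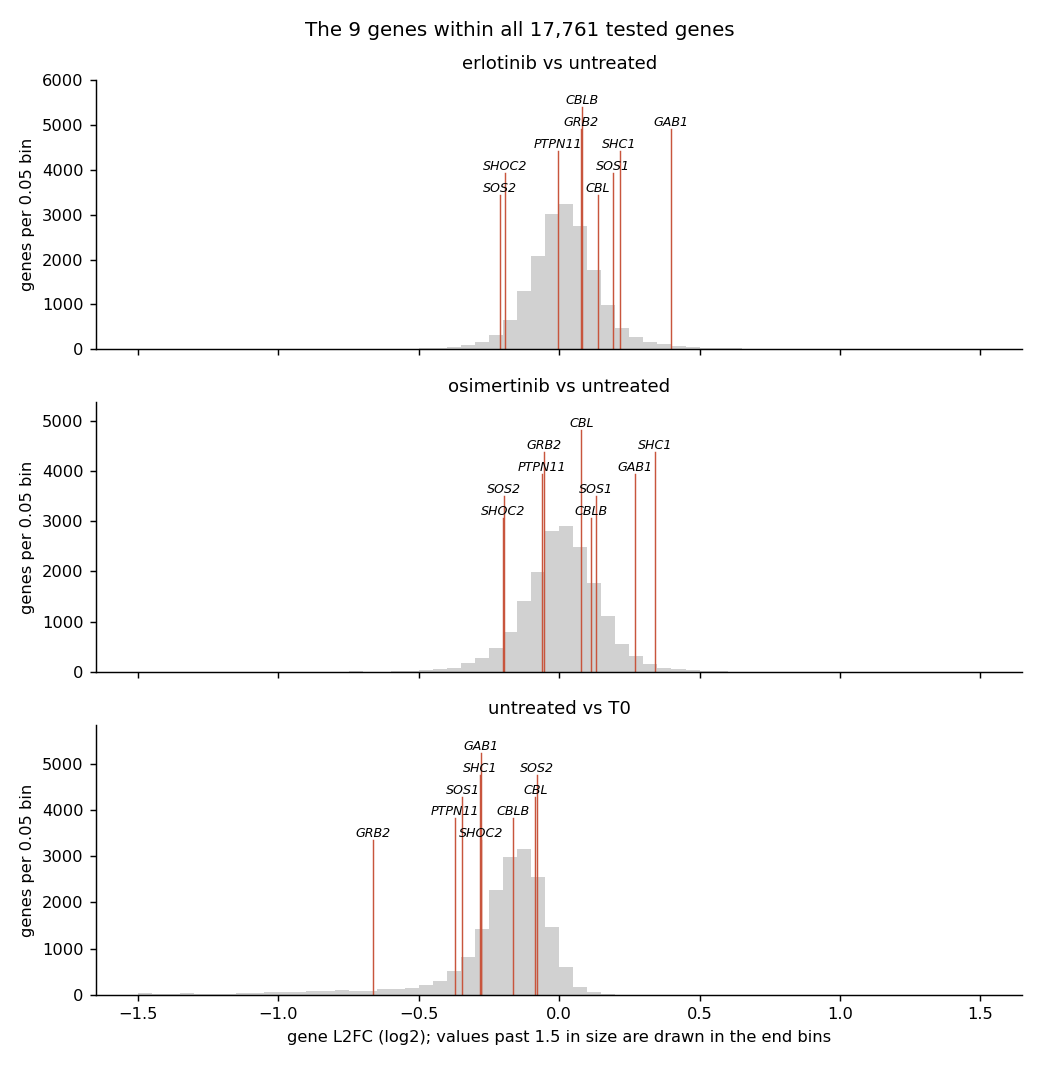
Number of genes per bin of 0.05 (vertical axis) by gene L2FC (horizontal axis, log2) over all tested genes, with red lines at the 9 genes, for erlotinib vs untreated, osimertinib vs untreated and untreated vs T0. In untreated vs T0 the bulk of genes lies below 0, at a median of -0.16, and GRB2 at -0.66 sits in the left tail; with erlotinib GAB1 at 0.40 sits in the right tail.

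The surrounding pathway was described by 72 further genes in 7 lists. With erlotinib 9 were lower and 8 higher, and with osimertinib 11 were lower and 10 higher, against untreated cells. As shares of the 72 these were 12.5% and 11.1% with erlotinib, where 2.62% and 5.42% of all genes were lower and higher, and 15.3% and 13.9% with osimertinib, where it was 5.44% and 6.56%. The counts per list are small and are given as a description beside those shares. The lists were chosen with earlier results of these data known, so higher shares than over all genes may partly come from that choice. EGFR itself had an L2FC of 0.44 with erlotinib (adjusted p = 0.0117 in limma), 0.55 with osimertinib (0.00127) and -0.92 in untreated cells against T0 (4.36e-08). Of 21 other adaptors, 4 were lower and 0 higher with erlotinib, and 5 were lower and 2 higher with osimertinib. FRS2, the docking protein of fibroblast growth factor receptors, was at -0.58 and -0.48 with erlotinib and osimertinib. CRK, an SH2-SH3 adaptor like GRB2, was at -0.40 and -0.59, and its relative CRKL was at -0.35 and -0.59. All 3 passed the test with both drugs. The remaining calls in this list were IRS2 (-0.28 with erlotinib) and GRB7, GAB2, GAB3 and DOK1 (-0.25, -0.30, 0.23 and 0.30 with osimertinib), and these names, like SPRY2 and others given here only because few genes of a list passed, were picked after their values were seen.

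Further down, among 12 RAS, RAF, MEK and ERK genes, BRAF was lower (-0.31) and HRAS higher (0.21) with erlotinib, and MAPK3 was higher (0.27) with osimertinib. Of 6 partners of SHOC2, 1 was lower with each drug, the phosphatase subunit PPP1CA, which works in the SHOC2 complex, at -0.35 with erlotinib and -0.56 with osimertinib. Of 11 genes linked to CBL, 1 was lower and 2 were higher with erlotinib, and 1 was lower and 1 higher with osimertinib. The lower one was ERRFI1, an inhibitor of EGFR, at -0.26 and -0.46, and the higher ones were SPRY2 (0.23 and 0.32) and, with erlotinib, SH3KBP1 (0.21). Of 9 suppressors of RAS signalling, 0 were lower with either drug, 3 were higher with erlotinib and 4 with osimertinib. NF1, which switches RAS off, was at 0.37 with erlotinib and 0.34 with osimertinib, SPRED1 and SPRED2, which bring NF1 to the membrane, were at 0.31 and 0.26 with erlotinib and 0.25 and 0.34 with osimertinib, and RASA1, another protein that switches RAS off, was at 0.41 with osimertinib and 0.09 with erlotinib (adjusted p = 0.00918 and 0.675 in limma). On the PI3-kinase branch, 2 of 9 genes were lower with each drug, PDPK1 at -0.53 with erlotinib and -0.58 with osimertinib, and PIK3CB at -0.36 and -0.59. Of the 4 receptors, EGFR was the only one higher, and ERBB2 was lower with osimertinib (-0.27).

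For GRB2 and the 3 genes that passed with a drug, the genes with the most similar values were sought by Euclidean distance over the 3 L2FC against T0 (erlotinib, osimertinib and untreated), which share the T0 libraries. Nearest to GRB2 were TSEN34, NOP2 and DSN1, at distances of 0.03, 0.03 and 0.04. Nearest to GAB1 were NDUFS1, BCL2L11 and LBX2, at 0.05, 0.06 and 0.06. BCL2L11, which encodes the cell death protein BIM, was at 0.15 with erlotinib, -0.01 with osimertinib and -0.23 in untreated cells. Nearest to SHC1 were SFXN5, MGEA5 and IL4R, at 0.02 each, and nearest to SHOC2 were DNAJB13, TWF1 and NR2C2AP, at 0.01, 0.03 and 0.04. With 3 values per gene, such distances are a description of these libraries.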

How the data were processed

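The authors amplified guide sequences from genomic DNA, mapped reads to the TKOv3 guide list allowing 1 mismatch and deposited a table of raw counts, 1 row per guide and 1 column for each of 8 libraries. The deposited notes name Bowtie 1.3.1 and the study's methods a later Bowtie. Of 71090 guides, 142 were non-targeting. Gene names that a spreadsheet had turned into money-like text (50) were restored for 49, and 4 guides of the other were left out. As in the study's methods, the lowest 5% of guides by mean normalised count (below 45.8) were removed, which left 67531, and genes with at least 2 guides were tested. No count column was left unmapped.

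Counts were scaled by TMM (edgeR 4.0.16) and taken as log2 CPM with a prior count of 1. Each guide was centred on its mean over the 8 libraries, the median over guides gave the gene value, and the median over the 138 non-targeting guides was subtracted. All 4 groups entered 1 limma fit (3.58.1, R 4.3.3, eBayes with trend, 4 residual and 37.6 total degrees of freedom), adjusted by Benjamini-Hochberg over 17761 genes at 0.05. This test over libraries stands in place of the study's empirical p from resampled non-targeting guides. Single guides were tested with edgeR's quasi-likelihood test, scaled on the non-targeting guides. The fits were tested on simulated data. Alternatives were DESeq2 (1.42.0) size factors, no low-count filter, the mean over guides, a prior count of 5, 3 other zeros, edgeR or DESeq2 on counts summed over guides, a replicate block, and each library left out.

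The 9 genes and the pathway lists were chosen with earlier results of these data known. All 9 were named in every comparison. From the lists, the plan named EGFR and up to 3 lowest and 3 highest called genes per drug over all lists. For GRB2 and each other gene called with a drug, it named the 3 nearest genes. Further list genes, such as IRS2, BRAF and ERRFI1, were named outside that plan after their values were seen. Replicate libraries were compared by chi-square, and no pair was close enough to be 1 library listed again. Guide sequences were not used here, and some list genes are not reported here.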

Additional observations from a re-analysis of the deposited data

How the results depend on the processing

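With 2 libraries a group, 8 in all, and non-targeting guides as the zero, small shifts could not be resolved, and the choice of zero decided most calls against T0. Of the calls in the drug comparisons, SHC1 with osimertinib held in all 18 settings, GAB1 in 17 with erlotinib and 16 with osimertinib, and SHOC2 in 11 and 15. GRB2 against T0 held in all 18 in untreated cells. The causes were not tested. DESeq2 size factors and a prior count of 5 changed no call among the 9 genes.

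No pairing of the libraries by replicate number was seen, as deviations of the same number correlated at no more than 0.016 between groups, over 17761 genes. This cannot show whether the numbers mark a shared infection, which the sources do not state. With the replicate number as a block, the counts of the 9 genes called did not change in any comparison (7 lower in untreated cells against T0, and GAB1 at 0.40 with erlotinib, adjusted p = 2.37e-05 in limma), and 472 genes were lower and 985 higher with erlotinib against 466 and 963 without it.

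In untreated cells against T0 the count of lower genes among the 9 was 7, and it was 2, 3 and 1 with the zero at all targeting guides, at olfactory receptor guides and at chromosome neighbours. Over all genes, 8935 were lower, and 1800, 2493 and 1396 with those zeros, while 6 were higher, and 496, 119 and 229 with them and 12 with the mean over guides. With erlotinib against T0, 4 of the 9 were lower and 0 higher, and this was 2 and 2 at all targeting guides, 2 higher at olfactory receptor guides, and 2 and 1 at neighbours. With osimertinib against T0, 5 were lower, and 3 with each of these zeros, with 1 higher at all targeting guides. Over all genes the erlotinib counts against T0 of 7882 lower and 74 higher became 1970 and 884, 2291 and 578, and 1363 and 309. Those of osimertinib, 8305 and 224, became 2771 and 1865, 3489 and 1105, and 1795 and 688.

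With erlotinib against untreated cells, 1 gene of the 9 was lower and 1 higher. The lower count was 2 with no low-count filter, 2 at all targeting guides, 2 with edgeR sums, 0 at olfactory receptor guides and 0 with DESeq2 sums. The higher count was 2 with the mean over guides, at olfactory receptor guides and with edgeR sums. With osimertinib against untreated cells the lower count of 1 was 2 with the mean over guides, at all targeting guides and with edgeR sums, and the higher count of 2 was 1 with edgeR and with DESeq2 sums. At chromosome neighbours 247 and 540 genes were lower and higher with erlotinib, and 433 and 454 with osimertinib, against 466 and 963, and 966 and 1165. Between the drugs 97 and 186 became 41 and 123 at neighbours, and 178 and 348 with edgeR sums.

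Signs turned mostly in values that were not called. At all targeting guides these were, in untreated cells against T0, SOS2 (0.094), CBL (0.086) and CBLB (0.0080, called lower otherwise), with erlotinib against T0 SHC1 (0.087), SOS1 (0.0018) and CBLB (0.072), and with osimertinib GAB1 (0.15), CBL (0.16) and CBLB (0.11). At olfactory receptor guides they were SOS2 (0.042) and CBL (0.035) in untreated cells, SHC1 (0.065) and CBLB (0.050) with erlotinib, GAB1 (0.12), CBL (0.12) and CBLB (0.074) with osimertinib, all against T0, and PTPN11 (0.0098) for erlotinib against untreated cells. At chromosome neighbours they were, against T0, SOS2 (0.045) and CBL (0.0015) in untreated cells, SHC1 (0.035) and CBLB (0.086) with erlotinib, and GAB1 (0.073), SOS2 (0.027, called lower otherwise) and CBLB (0.12) with osimertinib, beside CBL (-0.0041) for osimertinib against untreated cells and SHOC2 (-0.017) between the drugs. With no low-count filter PTPN11 was 0.051 with erlotinib and 0.044 with osimertinib against untreated cells. The mean over guides gave GRB2 -0.0084 with erlotinib against untreated cells, GAB1 0.00018 with osimertinib against T0 and SOS2 0.0054 between the drugs. With edgeR and DESeq2 sums GRB2 was -0.039 in both and PTPN11 0.0065 in both with erlotinib against untreated cells, SHC1 was -0.0065 and -0.0066 with osimertinib against T0, and SOS1 was -0.018 in both between the drugs.

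Leaving out 1 library at a time, the lower count ranged over 0 to 2 for each drug against untreated cells and 3 to 5 for osimertinib against T0, and the higher count over 1 to 2 for erlotinib against untreated cells and 0 to 1 for erlotinib against T0. For erlotinib against untreated cells PTPN11 ranged over -0.039 to 0.032 and GRB2 over -0.11 to 0.29, and for osimertinib GRB2 over -0.16 to 0.034. With osimertinib against T0 GAB1 ranged over -0.059 to 0.026, CBL over -0.063 to 0.051 and SHC1 over -0.011 to 0.12. Between the drugs SHOC2 ranged over -0.017 to 0.032, PTPN11 over -0.0100 to 0.11 and GRB2 over -0.048 to 0.35. Over all genes 181 to 629 were then lower and 463 to 1172 higher with erlotinib, 445 to 1016 and 591 to 1080 with osimertinib, and 5312 to 9807 lower and 3 to 9 higher in untreated cells against T0. Against T0, 4925 to 8837 were lower and 44 to 87 higher with erlotinib, and 130 to 220 were higher with osimertinib. Between the drugs 14 to 98 were lower and 29 to 243 higher. The lone library of a group was assumed to vary like the other groups.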
